A study of Rattus norvegicus with 10 samples.

Results

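Inflammatory chemokines and their receptors were examined in the mammary gland after 12 weeks of treatment with 17β-estradiol (E2) in rats of the ACI and BN strains. The genes were taken by their symbols, as members of the CC, CXC, CX3C and XC chemokine families, of their receptor families and of the atypical receptors *Ackr1* to *Ackr4*; the lymphoid organizer genes *Cxcl13*, *Ccl19*, *Ccl21*, *Ccl28*, *Ccr7* and *Cxcr5* were left out. This gave 40 of the 14217 genes with a named probe set on the array, 25 ligands and 15 receptors, which are measured by 52 of 31042 probe sets. The groups were 5 female rats of the ACI strain (ACI/SegHsd) and 5 of the Brown Norway (BN) strain. Every rat carried a subcutaneous E2 implant placed at 9 weeks of age, and the whole gland of each rat gave 1 Affymetrix rat expression array. The labels of the ACI rats give an age of 21 weeks, and those of the BN rats give no age. All rats received E2 and none was sham treated, so the strains are compared during treatment and no response to E2 is measured. Values are log2 expression per probe set, made by the authors with GCRMA, and a gene is represented by its probe set with the highest mean over the 10 arrays.

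Chemokines are small secreted proteins that bind receptors with 7 membrane passes and direct the movement of leukocytes. The classical receptors signal through G proteins into the cell, whereas the atypical receptors bind chemokines without that signal and transport them or take them up for degradation. In the mammary gland, chemokines bring macrophages and eosinophils to the growing ducts, and their levels also rise in involution and inflammation.

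Array medians lay between 3.35 and 3.53 (log2), and the lowest value of the data, 2.23, was held by 30.6% to 33.3% of probe sets per array. A strain with all 5 rats under 4 is called near background here, and for such a strain the fold is a lower bound, computed with its values raised to 4. On the second principal component BN rats 4 and 5 lay apart from the other BN rats. The animal IDs of these 2 rats and of ACI rats 4 and 5 begin with H, whereas the other rats have S; no source used here explains the 2 letters. The strains were deposited in separate runs of samples, so a difference between deposits and one between strains cannot be told apart. Luminal epithelial markers were high in all glands, with a mean log2 level of 8 keratin, claudin and adhesion genes of 10.46 to 10.97 in the ACI strain and 9.86 to 10.66 in the BN strain.

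Ligands were higher in BN glands more often than in ACI glands. Of the 25 ligand genes, 9 were called higher in BN rats, 1 was called higher in ACI rats and 15 were not called, with a call meaning an adjusted p under 0.05 from limma. Of the 15 receptor genes, 4 were called higher in BN rats, 1 in ACI rats and 10 were not called. Over all genes tested in the same way, 9.12% were called higher in BN and 8.29% higher in ACI. The median log2 difference, ACI minus BN, was -1.19 over the ligands and -0.19 over the receptors, and it was 0.0 over all genes. Values of all rats of a strain lay beyond all those of the other strain in 12 of the 40 genes toward BN and in 3 toward ACI, against 8.32% and 8.3% of all genes. A mean of at least 4 was reached by 16 of the ligands and 7 of the receptors. Over those genes alone the median log2 difference was -1.25 for ligands and -1.31 for receptors. Another 4 ligands and 5 receptors were under 4 in all rats, and these 9 genes differed by at most 0.16 between strains.

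With all rats, 3930 of 31042 probe sets were called (12.7%). The ID series hold 3 rats (S) and 2 rats (H) of each strain. Among rats of series S alone, 7 ligands and 2 receptors were called higher in BN, 1 ligand and no receptor higher in ACI, when 4855 probe sets were called in all. Among rats of series H alone, 100 probe sets were called in all, among them 1 ligand toward BN, *Cxcl12*, and 1 toward ACI, *Ccl11*. Series S alone lost the calls of *Ackr3* (adjusted p = 0.0739), *Cxcl14* (adjusted p = 0.0789), *Cxcl1* (adjusted p = 0.0947), *Ccl17*, *Ackr4* and *Cxcr4*. Other settings added calls, but they also called more over the whole array. The filter below called 4921 of 14526 probe sets (33.9%), and centred arrays called 5261 of 31042. A filter to means of at least 4 added *Ccl2* (adjusted p = 0.0289), *Ccl7* (adjusted p = 0.0299), *Ccr1* (adjusted p = 0.0308), *Cxcl9* (adjusted p = 0.0357) and *Xcl1*. It also took out the called genes *Ackr4*, *Ccl3*, *Cxcl1* and *Cxcl2*, whose means were under 4. Centred arrays added *Ccl7* (adjusted p = 0.0445), *Ccr1* (adjusted p = 0.0347), *Cxcl9* (adjusted p = 0.0333), *Ccl22* (adjusted p = 0.0368) and *Xcl1*. Of the 15 called genes, 14 were also called in each of the 10 fits that left out 1 rat; the exception was *Ackr4*. In a bulk sample, a difference in the number of cells of a type cannot be told apart from a difference in RNA per cell.

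**Figure D1:**
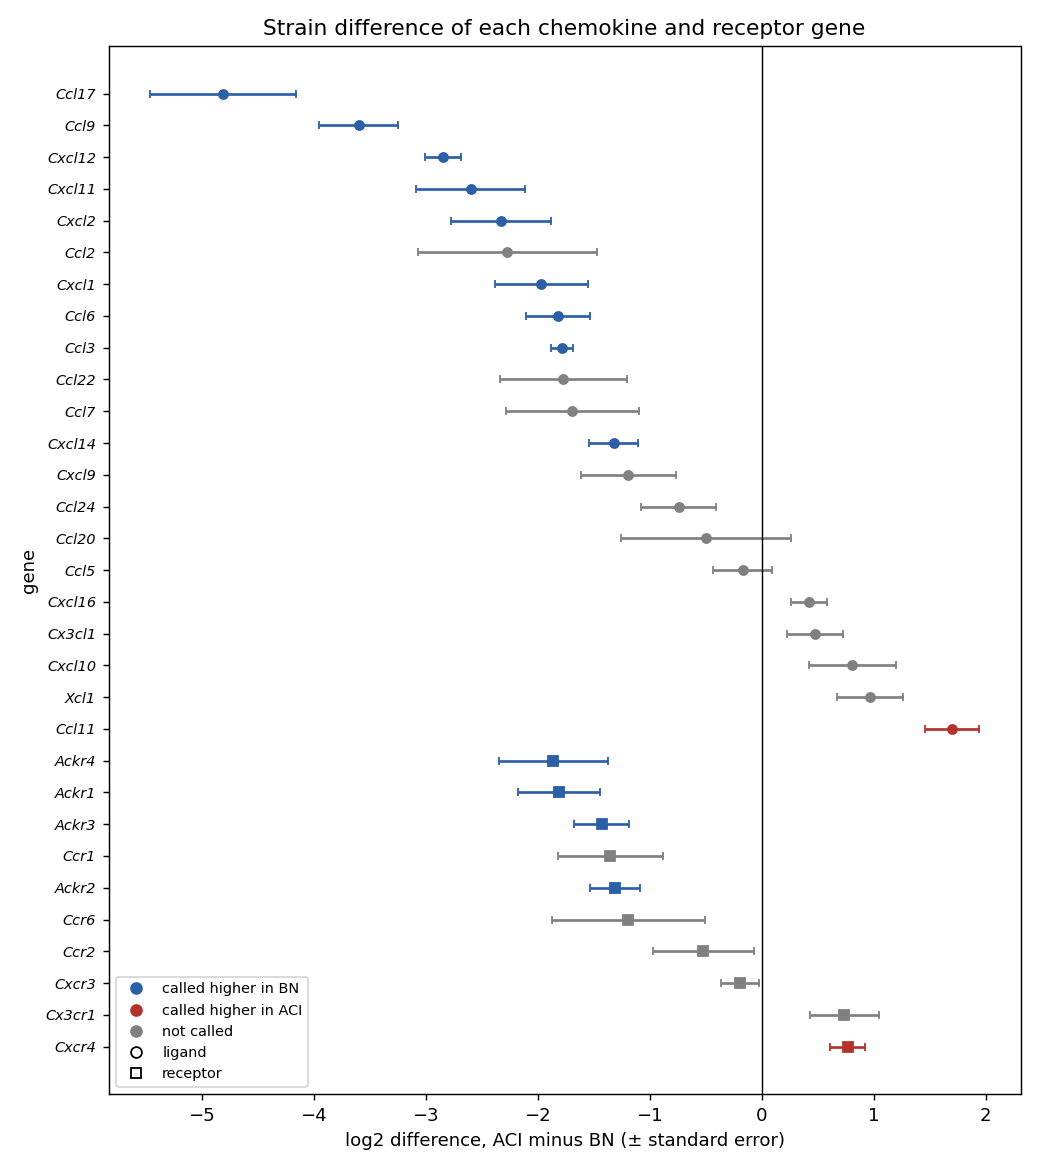
Log2 difference between strains (x axis, ACI minus BN, with the standard error as bars) of the 31 chemokine and receptor genes (y axis) that were not near background in both strains; circles are ligands and squares receptors, blue marks genes called higher in BN and red those called higher in ACI. The 4 atypical receptors *Ackr1* to *Ackr4* are the only blue squares, and *Ccl11* and *Cxcr4* the only red points.

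*Cxcl12*, which encodes a constitutive chemokine of stromal cells, was higher in BN by far more than its spread between rats. Its log2 levels were 9.72, 9.90, 9.50, 9.16 and 9.15 in ACI rats 1 to 5 and 12.54, 12.17, 12.19, 12.34 and 12.42 in BN rats 1 to 5. Every BN rat lay more than 2 log2 units above the highest ACI rat. The log2 difference was -2.85 (standard error 0.161, adjusted p = 3.26e-05 from limma), a level 7.19-fold higher in BN. A second probe set of the gene had -2.31 (adjusted p = 0.000734), and the last, with overlapping strains, had -1.32 (adjusted p = 0.305). *Cxcl12* was called under every alternative setting tried, with log2 differences from -3.22 to -2.16.

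The receptors of CXCL12 differed in opposite directions. *Ackr3*, which encodes an atypical receptor that takes up CXCL12 and CXCL11, had log2 levels of 9.29, 10.19, 10.25, 9.83 and 9.34 in ACI rats and of 10.96, 11.43, 11.20, 11.61 and 10.83 in BN rats. The strains did not overlap, and the level was 2.69-fold higher in BN (log2 difference -1.43, standard error 0.243, adjusted p = 0.00629). *Cxcr4*, which encodes the signalling receptor of CXCL12, was higher in ACI. Its values were 9.51, 9.04, 8.87, 9.43 and 9.50 in ACI rats and 8.83, 8.36, 8.55, 8.39 and 8.37 in BN rats, again without overlap, although ACI rat 3 lay only just above BN rat 1. The log2 difference of 0.77 (standard error 0.156, adjusted p = 0.014) corresponds to a 1.71-fold higher level, and the other 2 probe sets of *Cxcr4* had 0.82 (adjusted p = 0.00289) and 1.11 (adjusted p = 0.0487). The call of *Cxcr4* was lost with the replicate number as a block (adjusted p = 0.0555), without BN rats 4 and 5 (adjusted p = 0.054) and within each ID series. Its difference lay between 0.56 and 1.08 in all settings. Equal replicate numbers did not pair the rats, with correlations of -0.255 to 0.226 between their deviations. The fit with that block called 1926 probe sets in all, against 3930 without it. Of 7 markers of fibroblasts, 2 were called toward BN and none toward ACI. *Pdgfra* was 1.95-fold higher (adjusted p = 0.0402), *Fbln1*, near background in ACI rats, was at least 1.32-fold higher (adjusted p = 0.00523), and *Lum* at -0.05 and *Col1a1* at -0.78 were among the 5 that were not called. Over all 7, the mean log2 level spanned 9.31 to 9.57 in the ACI strain and 9.64 to 11.47 in the BN strain. The part of these markers in the result was not tested.

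**Figure D2:**
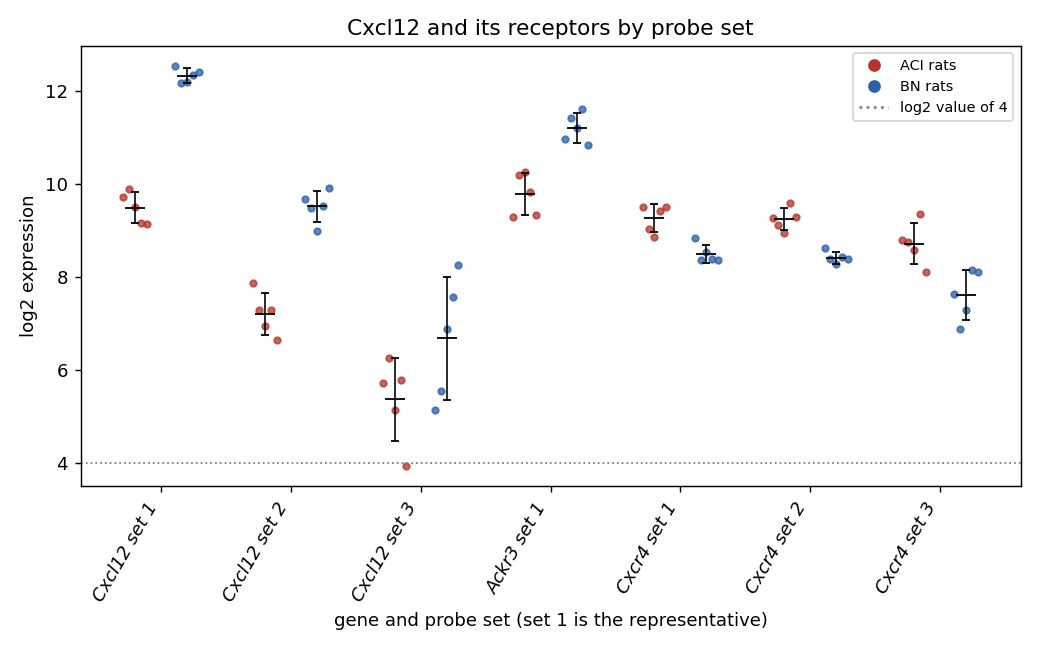
Log2 expression (y axis) of each probe set of *Cxcl12*, *Ackr3* and *Cxcr4* (x axis) in each ACI rat (red) and BN rat (blue); bars show mean ± SD (n = 5), and the dotted line marks a log2 value of 4. BN rats are higher in *Ackr3* and in all 3 sets of *Cxcl12* by the mean, and ACI rats in all 3 sets of *Cxcr4*; the strains overlap in set 3 of *Cxcl12* and of *Cxcr4*.

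Among the CXC ligands that attract neutrophils through CXCR2, *Cxcl1* and *Cxcl2* were higher in BN. *Cxcl1* was at 2.66, 2.72, 4.13, 2.23 and 2.68 in ACI rats and at 4.87, 4.82, 5.86, 4.29 and 4.41 in BN rats. ACI rat 3 was the one ACI rat above 4, and it still lay below every BN rat. The log2 difference was -1.97 (standard error 0.415, adjusted p = 0.017). *Cxcl2* was between 2.23 and 2.25 in all ACI rats and at 4.57, 4.61, 6.21, 3.52 and 3.97 in BN rats. ACI glands were thus near background and BN rats 4 and 5 were under 4 as well; the log2 difference was -2.33 (standard error 0.445, adjusted p = 0.0107), and the level was at least 1.49-fold higher in BN. Neither gene was called when values under 4 were raised to 4 (adjusted p = 0.105 and 0.449), and *Cxcl2* was not called with the replicate number as a block (adjusted p = 0.0597). *Cxcl3* was between 2.29 and 2.48 and *Cxcl6* between 2.23 and 2.24 in all rats.

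Promoters of chemokine genes were searched for a motif that is bound by NF-κB, a transcription factor of inflammation. Of the 40 genes, 31 had an entry in a RefSeq promoter table of build GRCr8, which is itself an assembly of a BN rat, and the 250 bases before the gene start were searched on both strands for the 10-letter κB motif by its consensus. It was found in 9 of the 31 genes, against 6.41% of all 27457 promoters of that length in the table. Among the ligands called higher in BN it was in 4 of the 8 with an entry (*Cxcl1*, *Cxcl2*, *Cxcl11* and *Ccl9*), among ligands that were not called in 4 of 11 (*Ccl7*, *Ccl20*, *Cxcl6* and *Cxcl10*), and among receptors in 1 of 12 (*Ccr3*). These counts were not tested. The 4 called promoters and that of *Cxcl10*, a neighbour of *Cxcl11* that was not called, follow as the 250 bases that end just before the gene start, on the strand of the gene, with κB matches in capitals. In *Cxcl1* (chr14:17479322-17479571, minus strand) and *Cxcl2* (chr14:17467256-17467505, minus strand) the capitals are 2 overlapping matches. *Cxcl11* (chr14:15973478-15973727, plus strand) and *Ccl9* (chr10:68868878-68869127, minus strand) hold 1 match each, and *Cxcl10* (chr14:15988816-15989065, plus strand) holds 2 separate sites.
Cxcl1: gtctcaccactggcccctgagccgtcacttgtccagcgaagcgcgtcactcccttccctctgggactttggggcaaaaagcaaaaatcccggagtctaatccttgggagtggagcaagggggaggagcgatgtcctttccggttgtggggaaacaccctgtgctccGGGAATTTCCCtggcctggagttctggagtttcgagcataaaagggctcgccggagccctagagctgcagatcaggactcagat
Cxcl2: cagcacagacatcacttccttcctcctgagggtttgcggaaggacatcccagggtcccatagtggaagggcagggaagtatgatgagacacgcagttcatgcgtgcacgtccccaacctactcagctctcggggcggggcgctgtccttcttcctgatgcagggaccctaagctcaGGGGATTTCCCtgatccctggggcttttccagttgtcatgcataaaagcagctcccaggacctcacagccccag
Cxcl11: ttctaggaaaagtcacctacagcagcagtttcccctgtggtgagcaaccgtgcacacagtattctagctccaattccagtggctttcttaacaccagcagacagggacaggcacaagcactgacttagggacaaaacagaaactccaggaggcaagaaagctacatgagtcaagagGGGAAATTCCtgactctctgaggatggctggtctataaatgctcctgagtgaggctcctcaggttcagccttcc
Ccl9: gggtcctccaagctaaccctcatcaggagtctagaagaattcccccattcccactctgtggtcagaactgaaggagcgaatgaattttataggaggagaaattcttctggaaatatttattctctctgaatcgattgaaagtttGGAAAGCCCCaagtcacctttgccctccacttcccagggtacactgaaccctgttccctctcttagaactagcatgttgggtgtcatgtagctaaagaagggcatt
Cxcl10: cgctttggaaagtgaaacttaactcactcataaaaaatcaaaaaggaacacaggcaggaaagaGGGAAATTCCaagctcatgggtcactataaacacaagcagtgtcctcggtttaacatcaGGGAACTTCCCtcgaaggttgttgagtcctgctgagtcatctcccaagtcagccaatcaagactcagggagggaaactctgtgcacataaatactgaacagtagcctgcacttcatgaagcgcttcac
The nearest match begins 83 bases before the gene start in *Cxcl1*, 73 in *Cxcl2*, 74 in *Cxcl11*, 106 in *Ccl9* and 127 in *Cxcl10*. The STAT motif TTCNNNGAA, which reads the same on both strands, was found in *Ccl17*, *Cxcl11*, *Ccl24* and *Ccr6* and in 7.52% of all promoters. A match is a run of letters and not a measured site of binding.

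The 3 interferon-inducible ligands of CXCR3, which attract T cells and natural killer cells, are neighbours on the chromosome, and 1 of them was called. *Cxcl11* was at 2.81, 3.74, 4.15, 4.50 and 4.51 in ACI rats and at 6.75, 6.25, 7.89, 6.29 and 5.51 in BN rats, with no overlap and a level 6.05-fold higher in BN (log2 difference -2.60, standard error 0.491, adjusted p = 0.0104). This fold includes ACI values under 4, and with such values raised to 4 the log2 difference was -2.31 (adjusted p = 0.00782). The call of *Cxcl11* was lost with the replicate number as a block (adjusted p = 0.0748), a number that did not pair the rats. *Cxcl9* was at 7.29, 6.31, 6.56, 6.54 and 6.51 in ACI rats and at 8.89, 8.36, 8.12, 7.03 and 6.76 in BN rats. BN rats 1 to 3 lay above all ACI rats, and BN rats 4 and 5 lay within the ACI range. The log2 difference of *Cxcl9* was -1.19 (adjusted p = 0.119). It was -1.46 without BN rat 5 (adjusted p = 0.043) and -1.74 within series S (adjusted p = 0.0443). On the second probe set of *Cxcl9* it was only -0.44 (adjusted p = 0.596), and on the mean over its probe sets -0.81 (adjusted p = 0.257). *Cxcl10*, between the other two on the chromosome, had a mean of 4.52 ± 0.664 in ACI rats and 3.71 ± 0.602 in BN rats (SD, n = 5) and was not called (log2 difference 0.81, adjusted p = 0.254). Of their inducers, *Irf1* was at 8.21 in ACI rats and 8.27 in BN rats on average and *Ifng* held the lowest value of the data in all rats.

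The CC ligands that act on monocytes, macrophages and T cells include a run of 5 neighbouring genes in the order *Ccl5*, *Ccl9*, *Ccl6*, *Ccl3* and *Ccl4*, of which the middle 3 were higher in BN. *Ccl9* was at 3.54, 3.94, 4.41, 3.80 and 3.40 in ACI rats and at 6.95, 7.34, 8.60, 7.39 and 6.81 in BN rats. The strains lay more than 2 log2 units apart, and the level was 12.1-fold higher in BN (log2 difference -3.60, standard error 0.352, adjusted p = 0.000481). Only ACI rat 3 was above 4 among ACI rats, and with values under 4 raised to 4 the log2 difference was -3.34 (adjusted p = 0.000507). *Ccl6*, a rodent chemokine of macrophages, was at 9.22, 9.83, 9.32, 9.17 and 8.87 in ACI rats and at 11.10, 11.49, 11.74, 10.87 and 10.32 in BN rats, a 3.54-fold higher level (log2 difference -1.82, standard error 0.285, adjusted p = 0.00423). *Ccl3*, which encodes the macrophage inflammatory protein MIP-1α, was between 2.29 and 2.37 in ACI rats and at 3.87, 4.05, 4.42, 3.94 and 4.25 in BN rats. Its strains were well separated (log2 difference -1.78, standard error 0.0997, adjusted p = 3.19e-05), but the BN values lie about 4, so that the level was only at least 1.08-fold higher and the call was lost when values under 4 were raised to 4 (adjusted p = 0.419). *Ccl5*, which T cells secrete, spanned 6.69 to 7.75 in the ACI strain and 6.71 to 7.99 in the BN strain (log2 difference -0.17, adjusted p = 0.785). *Ccl4* was near background in both strains, between 2.72 and 3.15.

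Of 12 markers of macrophages, 6 were called and all of them toward BN, 9 were lower in ACI by sign and 3 higher, and their mean log2 level spanned 8.90 to 9.42 in the ACI strain and 9.83 to 10.45 in the BN strain. The lysozyme gene *Lyz2* was 4.73-fold higher in BN (log2 difference -2.24, adjusted p = 3.18e-05). The integrin gene *Itgam*, near background in ACI rats, was at least 2.14-fold higher (adjusted p = 7.39e-05). The complement gene *C1qb* was higher in ACI by its mean (log2 difference 1.20, adjusted p = 0.0502), and *C1qa* at 0.11, *Cd14* at 0.09 and *C1qc* at -0.06 were not called either. Of the 6 measured markers of neutrophils, 2 were called higher in BN, *S100a9* with -4.92 (adjusted p = 0.0156) and *S100a8*, near background in ACI rats, at least 12.9-fold (adjusted p = 0.0392). Their mean log2 level, over all 6, spanned 2.63 to 3.20 in the ACI strain and 3.72 to 6.12 in the BN strain. The neutrophil granule genes *Camp* and *Mmp8* held the lowest value on all arrays. The part of these cells in the chemokine differences was not tested.

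*Ccl2* and *Ccl7*, neighbours that encode the monocyte attractants MCP-1 and MCP-3, had higher means in BN but were not called, and the ACI rats differed widely among themselves. *Ccl2* was at 4.42, 6.73, 9.35, 6.82 and 6.79 in ACI rats and at 9.11, 9.62, 9.16, 9.41 and 8.18 in BN rats. ACI rat 3 had a higher level than BN rats 1, 3 and 5, and ACI rat 1 lay far below the others. The log2 difference was -2.27 (standard error 0.798, adjusted p = 0.11), and without ACI rat 3 it was -2.91 (adjusted p = 0.021). *Ccl7* was at 3.45, 4.66, 6.45, 5.41 and 5.56 in ACI rats and at 7.50, 7.25, 7.02, 6.68 and 5.54 in BN rats. The same ACI rats were lowest and highest as for *Ccl2*, and BN rat 5 was the lowest BN rat in both genes (log2 difference of *Ccl7* -1.69, standard error 0.593, adjusted p = 0.11). 

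*Ccl11*, the next gene after *Ccl7*, encodes eotaxin, which attracts eosinophils through CCR3, and it was the one ligand called higher in ACI. Its log2 levels were 8.90, 9.12, 8.53, 8.60 and 8.56 in ACI rats and 6.71, 7.24, 6.35, 7.44 and 7.46 in BN rats. Every ACI rat lay above every BN rat, and the level was 3.25-fold higher in ACI (log2 difference 1.70, standard error 0.242, adjusted p = 0.00265). The gene was called under every alternative setting, with differences from 1.13 to 2.08. *Ccl24*, which encodes another eotaxin, spanned 6.18 to 7.93 in the ACI strain and 7.28 to 8.51 in the BN strain and was not called (log2 difference -0.74, adjusted p = 0.214). *Ccr3* held the lowest value of the data in all rats, as did the eosinophil genes *Epx* and *Il5ra*. The eosinophil gene *Prg2* was between 2.23 and 2.29 in ACI rats and at 4.12, 2.62, 2.23, 3.55 and 3.2 in BN rats. It was not called (log2 difference -0.89, adjusted p = 0.126).

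*Ccl17*, which encodes a ligand of CCR4 made by dendritic cells and macrophages, had the largest measured log2 difference of the 40 genes. It was at 2.88, 3.14, 3.14, 3.35 and 3.14 in ACI rats, near background, and at 9.16, 8.44, 5.40, 8.71 and 7.98 in BN rats. BN rat 3 lay more than 2 log2 units below the other BN rats and more than 2 above the highest ACI rat. The log2 difference was -4.81 (standard error 0.651, adjusted p = 0.00209), and the level was at least 15.3-fold higher in BN; within series S, which holds BN rat 3, the call was lost (adjusted p = 0.0653). *Ccl22* encodes the other ligand of CCR4 and lies beyond *Cx3cl1* from *Ccl17*. It was at 2.23 or 2.24 in ACI rats and at 5.57, 3.42, 2.23, 4.87 and 3.92 in BN rats, so that BN rat 3 again had the lowest level, here at that of the ACI rats (log2 difference -1.77, adjusted p = 0.0819; without BN rat 3 -2.21, adjusted p = 0.0127). Of 5 measured markers of dendritic cells, 3 were called toward BN, among them *Itgax* at -2.43 (5.38-fold, adjusted p = 0.000796) and *Clec9a*, near background in ACI rats and at least 3.2-fold higher in BN (adjusted p = 0.0416), and *Batf3* was called toward ACI at 0.62 (adjusted p = 0.0423). Their mean log2 level spanned 4.66 to 4.89 in the ACI strain and 5.79 to 6.77 in the BN strain. The value of BN rat 3 was 6.74. The part of these markers in the result was not tested. *Ccl20*, the ligand of CCR6, was near background in ACI rats and above 4 only in BN rats 1 and 2, at 5.93 and 4.51.

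Among the other ligands, *Cxcl14*, which encodes a chemokine of epithelial and stromal cells, was higher in BN. It was at 8.02, 7.03, 7.20, 6.80 and 7.31 in ACI rats and at 8.70, 8.40, 8.90, 8.44 and 8.51 in BN rats, without overlap (log2 difference -1.32, standard error 0.22, adjusted p = 0.00575, 2.49-fold). A second probe set of *Cxcl14* held the lowest value on all arrays. *Cxcl16*, a membrane-bound ligand of CXCR6, was at 10.56 ± 0.253 in ACI rats and 10.14 ± 0.273 in BN rats (SD, n = 5; log2 difference 0.42, adjusted p = 0.144). *Xcl1*, which encodes lymphotactin of cytotoxic lymphocytes, was at 6.57, 6.44, 6.83, 6.87 and 6.99 in ACI rats and at 6.33, 5.84, 6.35, 5.47 and 4.84 in BN rats. All ACI rats lay above all BN rats, yet the gene was not called (log2 difference 0.97, standard error 0.294, adjusted p = 0.0682; two-sided p = 0.00794 by an exact permutation test, which cannot go lower with 5 rats against 5). It was called after quantile normalization (adjusted p = 0.0302), with the filter to means of at least 4 (adjusted p = 0.0201), with centred arrays (adjusted p = 0.0135) and without BN rat 3 (adjusted p = 0.0486). *Cx3cl1*, which encodes the membrane-bound chemokine fractalkine, had 0.48 (adjusted p = 0.298). *Ccl27*, a chemokine of skin, was near background in all rats.

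**Figure D3:**
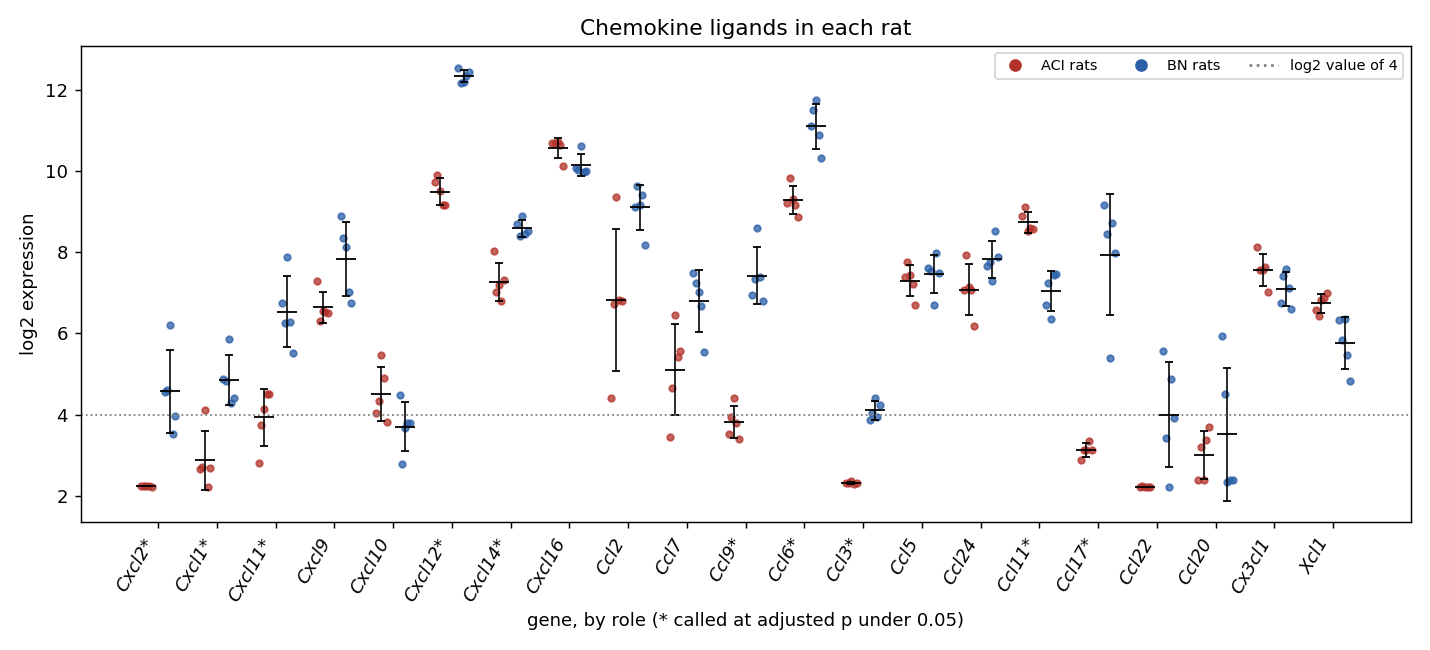
Log2 expression (y axis) of the 21 ligands (x axis, grouped by role; an asterisk marks a call) that were not near background in both strains, in each ACI rat (red) and BN rat (blue); bars show mean ± SD (n = 5), and the dotted line marks a log2 value of 4. BN rats lie above ACI rats in the 9 ligands called toward BN, and ACI rats lie above in *Ccl11* and *Xcl1*.

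All 4 atypical receptors were called higher in BN. *Ackr1*, which encodes the Duffy antigen receptor of venular endothelium and erythroid cells, was at 6.94, 6.03, 6.20, 6.14 and 4.75 in ACI rats and at 8.09, 8.18, 7.57, 7.75 and 7.54 in BN rats (log2 difference -1.81, standard error 0.369, adjusted p = 0.0143). The level was 3.52-fold higher in BN, with ACI rat 5 the lowest of all. *Ackr2*, which encodes a scavenger of inflammatory CC chemokines in lymphatic endothelium, was at 5.34, 5.92, 5.34, 5.36 and 5.23 in ACI rats and at 6.68, 7.17, 6.73, 7.06 and 6.09 in BN rats (log2 difference -1.31, standard error 0.22, adjusted p = 0.00587). The level was 2.48-fold higher in BN, and the closest values, of ACI rat 2 and BN rat 5, did not overlap; a second probe set was near background in all rats. *Ackr4* encodes a scavenger of CCL19, CCL21 and CCL25. It was at 2.24 to 2.66 in ACI rats, near background, and at 5.46, 5.19, 2.66, 4.47 and 4.42 in BN rats. BN rat 3 was at the level of the ACI rats, and the level in BN was at least 1.36-fold higher (log2 difference -1.86, standard error 0.484, adjusted p = 0.0388). With 1 rat left out the call held once, when BN rat 3 was the one omitted, and the other 9 adjusted p lay between 0.0614 and 0.0968. It was also lost with a block for the ID series (adjusted p = 0.0534) or for the replicate number (adjusted p = 0.115). *Ackr3* is described above with *Cxcl12*.

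Endothelium makes several of the atypical receptors. Among 7 of its markers, 4 were called and all of them toward BN, and their mean log2 level spanned 6.24 to 6.88 in the ACI strain and 7.36 to 8.15 in the BN strain. *Vwf*, which encodes von Willebrand factor, had a log2 difference of -2.46 (adjusted p = 0.000272) and *Tek*, an angiopoietin receptor gene, -1.58 (adjusted p = 0.0436). The part of these markers in the receptor differences was not tested.

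None of the 11 signalling receptors was called higher in BN, and only *Cxcr4* was called at all, toward ACI. Over all genes the shares were 9.12% toward BN and 8.29% toward ACI, and counts of 0 and 1 among 11 genes lie near them. At an unadjusted p under 0.05 there were 3 of the 11, against 4587 of all 14217 genes. Low levels limit this comparison, since only 4 of the 11 had a mean of at least 4 and 5 were under 4 in all rats. *Cxcr1*, *Cxcr2* and *Ccr3* held the lowest value of the data in every rat, and *Ccr4* and *Ccr10* did not exceed 2.34. *Ccr1*, the receptor of several of the ligands that were higher in BN, was at 3.52, 4.67, 4.62, 4.47 and 4.39 in ACI rats and at 5.23, 6.27, 6.78, 5.87 and 4.27 in BN rats. BN rats 1 to 4 lay above all ACI rats and BN rat 5 within their range, and the gene was not called (log2 difference -1.35, standard error 0.471, adjusted p = 0.109; without BN rat 5 -1.70, adjusted p = 0.0198). *Ccr6*, a receptor of B cells and T cells, was between 4.30 and 5.40 in ACI rats and at 8.17, 6.74, 4.27, 5.49 and 5.16 in BN rats. BN rats 1 and 2 stood above the rest, and BN rat 3 was lowest (log2 difference -1.19, adjusted p = 0.355). *Ccr2*, the receptor of CCL2 and CCL7 on monocytes, was above 4 only in BN rat 3, at 4.59. *Cxcr3* was between 4.66 and 4.80 in all rats except BN rat 1, at 5.58. *Cx3cr1* was near background in BN rats and reached 4.09 in 1 ACI rat (log2 difference 0.74, adjusted p = 0.177).

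**Figure D4:**
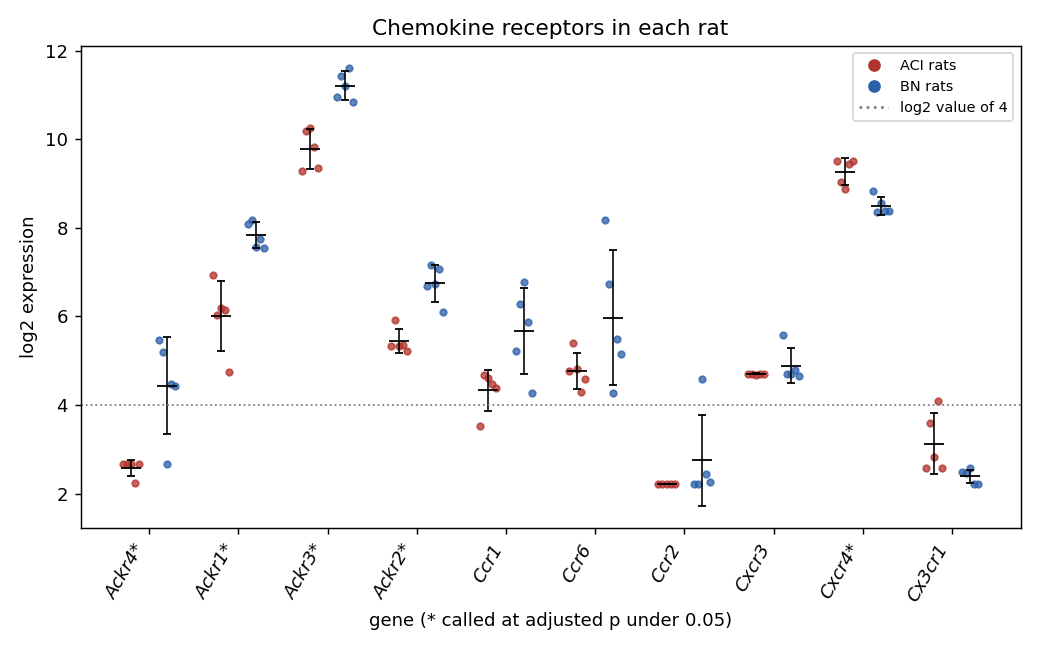
Log2 expression (y axis) of the 10 receptors (x axis; an asterisk marks a call) that were not near background in both strains, in each ACI rat (red) and BN rat (blue); bars show mean ± SD (n = 5), and the dotted line marks a log2 value of 4. BN rats are higher in *Ackr1*, *Ackr2* and *Ackr3* without overlap, BN rat 3 lies with the ACI rats in *Ackr4*, and ACI rats are higher in *Cxcr4*.

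Set side by side, 21 listed pairs of a ligand and a known receptor had both genes measured. The list is not complete: of the atypical receptors it holds only *Ackr3*, and no pair of *Ackr1*, *Ackr2* or *Ackr4*. The receptor was near background in both strains in 9 of them, among them the receptors of *Cxcl1*, *Cxcl2*, *Ccl11* and *Ccl17*. In 2 of the listed pairs both genes were called higher in BN, *Cxcl12* with *Ackr3* and *Cxcl11* with *Ackr3*. In 1 pair the calls were opposite, *Cxcl12* with *Cxcr4*. The other listed pairs had at most 1 called gene, such as *Cxcl11* at -2.60 with *Cxcr3* at -0.19, and *Ccl3* at -1.78 with *Ccr1* at -1.35.

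BN rat 3 differed from the other BN rats in both directions. Among the 13 genes called higher in BN it had the highest BN value in 7, the ligands *Ccl9*, *Cxcl11*, *Cxcl2*, *Cxcl1*, *Ccl6*, *Ccl3* and *Cxcl14*, and the lowest in 2, *Ccl17* and *Ackr4*. BN rat 5 was highest in none and lowest in 6, namely *Ccl9*, *Cxcl11*, *Ccl6*, *Ackr1*, *Ackr3* and *Ackr2*. The same rat 3 had the highest BN mean of the macrophage markers, 10.45, and the lowest of the T cell markers, 4.57, where the other BN rats were at 6.28 or above and the ACI rats between 4.24 and 4.61. Of 12 T cell markers, 5 were called toward BN and none toward ACI, with *Cd3d* at -5.01 (adjusted p = 0.0015) and *Cd3g* at -3.97 (adjusted p = 0.00557) as the largest. By sign, 8 of the 12 were lower in ACI and 3 higher. The latter were *Cd4* at 0.86, *Cd8a* at 0.1 and *Cd8b* at 0.08, and they were not called. Over the 5 measured B cell markers, all called toward BN and all near background in ACI rats, such as *Ms4a1* at least 32.9-fold higher in BN (adjusted p = 0.0318) and *Cr2* with means of 2.31 in ACI rats and 8.75 in BN rats (adjusted p = 0.0333), the mean of BN rat 3 was 2.33, against 7.73 or above in the other BN rats and 2.28 to 2.37 in ACI rats. Whether these cells account for the values of this rat was not tested.

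**Figure D5:**
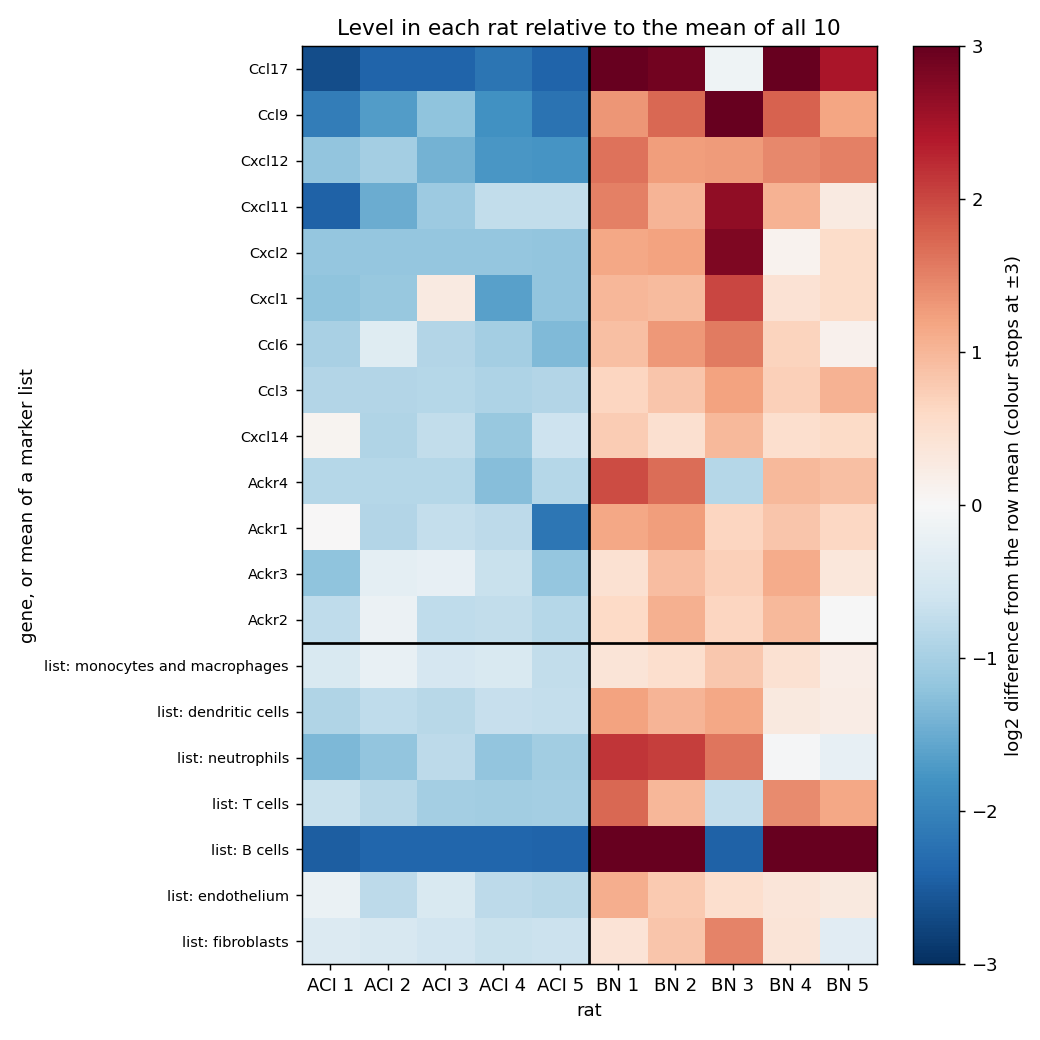
Log2 level in each rat (columns) of the 13 genes called higher in BN and of the mean of 7 marker lists (rows), as the difference from the mean of all 10 rats in that row; red is above and blue below that mean. In BN rat 3 the rows of *Ccl9*, *Cxcl2* and *Cxcl11* are at their darkest red, whereas *Ackr4* and the T and B cell lists are blue as in ACI rats.

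Genes that act around the chemokines were called more often toward BN than toward ACI. Over all genes, 9.12% were called higher in BN and 8.29% higher in ACI. The calls toward ACI, 2 in each list below, lie near that share. Of 30 measured genes of signalling below chemokine receptors, 10 were called higher in BN and 2 in ACI, with a median log2 difference of -0.45. The largest toward BN were *Rac2*, a small GTPase of leukocyte movement, at -3.31 (adjusted p = 0.000763), and *Rasgrp2*, an activator of RAP1, at -2.58 (adjusted p = 0.0107). *Gnb1*, a G protein subunit gene, and *Ncf1*, an oxidase subunit gene, were higher in ACI at 1.44 (adjusted p = 0.0207) and 0.61 (adjusted p = 0.0292). Of 27 genes of chemokine induction and its control, 6 were called higher in BN and 2 in ACI, with a median of 0.0. The count and the median mix genes of opposite action, since *Nfkbia* and *Tnfaip3* encode inhibitors of NF-κB. These 2 genes had 0.8 (adjusted p = 0.0911) and 1.16 (adjusted p = 0.0706) and were not called. *Fos* at -2.13 (adjusted p = 0.00513) and the cytokine gene *Il1b* at -2.03 (adjusted p = 0.00717) led toward BN, and *Jun* at 1.21 (adjusted p = 0.038) and *Relb* at 0.58 (adjusted p = 0.0277) were higher in ACI. Of 15 genes in a mixed list of chemokine binding, chemokine processing and related genes, ligands among them, 6 were called higher in BN and 2 in ACI. *Cklf*, which encodes a chemokine-like factor, and the proteinase gene *Mmp9* were near background in ACI rats and at least 4.44-fold (adjusted p = 0.00353) and at least 1.56-fold (adjusted p = 0.00217) higher in BN. *Rarres2*, which encodes the chemoattractant chemerin, was 3.91-fold higher in BN (log2 difference -1.97, adjusted p = 0.002). The proteoglycan gene *Sdc4* had 0.97 (adjusted p = 0.0249) and the plexin gene *Plxnb2* 0.92 (adjusted p = 0.0121). *Dpp4*, which encodes a peptidase that trims chemokines, was higher in BN at -1.69 (adjusted p = 0.0242), and *Pf4*, which encodes a CXC chemokine of platelets and macrophages that the symbol rule does not take, was higher in BN at -1.59 (adjusted p = 0.00011).

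For markers of the other cells of the gland, counts of 1 are near the shares over all genes, 9.12% toward BN and 8.29% toward ACI. The keratin and junction genes of luminal epithelium had 3 of 8 called toward ACI, the largest being *Cldn3* at 1.92 (adjusted p = 8.71e-05) and *Krt18* at 1.02 (adjusted p = 0.0391). By sign, 5 of the 8 were higher in ACI and 3 lower. Among the lower ones, *Krt7* at -1.53 (adjusted p = 0.0712) was not called. Basal epithelium had 1 of 7 called toward ACI, *Tp63* at 1.03 (adjusted p = 0.0103), and cytotoxic cells 1 of 7, the granzyme gene *Gzma* at 1.64 (adjusted p = 0.00176). By sign, 4 of the 7 genes of cytotoxic cells were lower in ACI and 3 higher. Among the lower ones, *Prf1* at -2.29 (adjusted p = 0.0548) and *Gzmk* at -1.65 (adjusted p = 0.0505) were not called. Called toward BN was *Fcer1a*, an IgE receptor gene and 1 of 9 genes of eosinophils and mast cells. It was near background in ACI rats and at least 3.0-fold higher in BN (adjusted p = 0.0131). *Adipoq*, the adiponectin gene and 1 of 7 of adipocytes, was called toward BN at -0.86 (adjusted p = 0.0481). None of 6 skeletal muscle genes was called by limma, with 1 at an unadjusted p under 0.05; their mean log2 level was 7.81 to 11.95 in the ACI strain and 4.55 to 11.12 in the BN strain.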

How the data were processed

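RNA of the mammary gland was measured on 1 array per rat in 5 ACI and 5 BN rats after 12 weeks of E2. The deposited values are log2 expression per probe set with 2 decimals, which the authors made with GCRMA 2.18.1 (submitters' processing notes); whether all arrays were normalized in 1 run is not given in the sources used. Groups were taken from the labels, although the extraction protocol of the BN arrays speaks of ACI rats. The values were used unchanged, without 57 control probe sets. Gene symbols came from the platform annotation and were updated through RefSeq gene IDs: 20826 probe sets had 1 symbol (20758 matched by ID), 436 several and 9780 none. limma 3.58.1 in R 4.3.3 compared the strains, with no further term, over all 31042 probe sets, followed by Benjamini-Hochberg adjustment. The fit was tested on simulated data. The number of arrays limits the precision.

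The genes, lists and tests were chosen with earlier results of these data known, so no list was tested as a whole. Values in every rat are given for each called gene and for genes paired with it as ligand or receptor, and from each further list the 2 called genes with the largest change in each direction are named. *Irf1*, *Ifng*, *C1qa*, *C1qb*, *C1qc*, *Cd14*, *Lum*, *Col1a1*, *Rarres2*, *Camp*, *Mmp8*, *Epx*, *Il5ra*, *Dpp4* and *Pf4* were named after their values were seen. The same holds for *Cd4*, *Cd8a*, *Cd8b*, *Prf1*, *Gzmk*, *Krt7*, *Prg2*, *Nfkbia* and *Tnfaip3*. Alternative settings were the replicate number or the ID series as a block, each series alone, a filter and a floor at 4, other normalizations and variance models, Student's test, other probe set rules, and leaving out rats.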

Additional observations from a re-analysis of the deposited data

Results flagged for a closer look

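In a strain of 5 rats, 1 value can lie far from the other 4, and chance flags about 1 in 20 groups. Of the 40 genes in both strains, these values stood apart, each given with its gap to the nearest rat as a share of the range of the strain. In ACI rats, *Cxcl1* was high in rat 3 (4.13, share 0.742), *Cxcl9* in rat 1 (7.29, share 0.745) and *Ackr2* in rat 2 (5.92, share 0.812). *Cxcl16* was low in ACI rat 5 (10.11, share 0.881) and *Ccr1* in ACI rat 1 (3.52, share 0.757). In BN rats, *Cxcl16* was high in rat 3 (10.62, share 0.859), *Ccr2* in rat 3 (4.59, share 0.911) and *Cxcr3* in rat 1 (5.58, share 0.848). The other values concerned strains whose rats lay within 0.42 of each other. They were *Ackr4* in ACI rat 4 (2.24, share 1.0), *Ccl27* in BN rat 5 (2.75, share 0.848), *Ccr4* in BN rat 1 (2.34, share 0.818), *Ccr10* in ACI rat 1 (2.3, share 1.0), *Cxcl2* in ACI rat 5 (2.23, share 1.0), *Ccl22* in ACI rat 2 (2.24, share 1.0), *Cxcl6* in BN rat 3 (2.24, share 1.0) and *Cxcr3* in ACI rat 3 (4.69, share 1.0).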

How the results depend on the processing

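The number of ligands called higher in BN was 9 and lay between 6 and 12 except among series H rats, where it was 1. Leaving out 1 rat gave 9 to 10 ligands toward BN and 1 to 3 toward ACI (3 without BN rat 3, 2 without ACI rat 5), 3 to 4 receptors toward BN and 1 toward ACI, medians of -1.36 to -0.93 for ligands and -0.24 to -0.01 for receptors, and 2598 to 4618 probe sets in all (2598 without ACI rat 4). With the replicate number as a block, 1926 probe sets and 0 receptors toward ACI were called; equal numbers did not pair the rats, with correlations of -0.255 to 0.226 between their deviations, and *Ackr4*, *Cxcl11*, *Cxcl2* and *Cxcr4* lost their calls. Receptors toward BN were 2 in series S and 0 in series H (100 probe sets), and receptors toward ACI 0 in both, 0 without BN rats 4 and 5 (6350 probe sets) and 0 without probe sets ending in _a_at, _s_at or _x_at, which leaves none for *Cxcr4*. Ligands toward ACI were 2 with a filter to means of at least 4, with quantile normalization and with centring, *Xcl1* being added in each. With the filter, the median was -1.31 over the receptors, of which 7 are left, and -1.25 over the ligands. With values floored at 4 it was -0.12 over the receptors and -0.49 over the ligands. Signs turned in *Ccl5* (0.24 in series S, 0.01 without BN rats 4 and 5) and *Ccl20* (1.13 in series H, and -0.8 to 0.1 with 1 rat left out, positive without BN rat 1), neither of them called. Student's test and the trended variance model called the same 15 genes. Low values limit *Cxcl1*, *Cxcl2*, *Ccl3* and *Ackr4*, which lost their calls with the floor.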
